A study of Mus musculus with 58 samples.

Results

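The regions described here are the CLOCK peaks of NIH3T3 cells at which no BMAL1 peak was listed. They were chosen by position: a peak of the NIH3T3 CLOCK list was taken where no BMAL1 peak centre, in either the NIH3T3 or the liver BMAL1 list, lay within 500 bp of its own centre on the same chromosome. This held for 931 of 1016 CLOCK peaks (91.6%), and the other 85 (8.37%) are called CLOCK peaks with BMAL1. Of those 85, 57 had a BMAL1 peak in both BMAL1 lists, 23 in the NIH3T3 list alone and 5 in the liver list alone. Of the 931, 7 lay upstream of Nr1d1, and these were the only ones with a liver CLOCK peak within 500 bp. None lay within 1 kb of any start site that could be derived from the BMAL1 lists. Such starts belong to genes with a BMAL1 peak, so the choice of regions by itself makes a near start less likely.

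CLOCK and BMAL1 are basic helix-loop-helix proteins that bind DNA as a pair at E-box sequences and drive the genes of the circadian clock, among them their own repressors of the Per and Cry families and the nuclear receptors Nr1d1 and Nr1d2. Chromatin immunoprecipitation followed by sequencing (ChIP-seq) lists the places where DNA was recovered with a protein. Since DNA binding by CLOCK is known to go with BMAL1, a CLOCK peak with no listed BMAL1 peak is a place where the lists of the pair's proteins part. A missing peak says that none was listed, and not that BMAL1 was absent.

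NIH3T3 is an established line of mouse embryonic fibroblasts. The cells had been given 100 nM dexamethasone, a glucocorticoid that sets the clocks of cultured cells to a common phase, for 30 min. Per the labels, the CLOCK list belonged to 6 libraries, 1 each at 18, 22, 26, 30, 34 and 38 h after that treatment, each from 2 confluent dishes. The NIH3T3 BMAL1 list was linked to 7 libraries at 12, 18, 20, 22, 26, 30 and 38 h after the same treatment, but its name gave 20 h alone, so which of them its 463 peaks were called on is unclear. The liver CLOCK list (439 peaks) belonged to a single sample labelled as pooled, with no time given, from C57/BL6 mice 12 to 14 weeks old kept under 12 h of light and 12 h of dark. The liver BMAL1 list (1254 peaks) was the authors' reprocessing of older liver libraries, taken 6 h after lights on (zeitgeber time 6). No list gave a peak height, a score or a value per library, so the depth behind a peak is unknown and CLOCK peaks could not be followed over time. A NIH3T3 CLOCK peak was 50 bp wide throughout, and a liver CLOCK peak 250 bp. All positions are in the genome build mm9, with starts counted from 1.

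The gap around the distance used to choose the regions was wide. The 85 CLOCK peaks with BMAL1 had their nearest BMAL1 centre 2 to 187 bp away, with a median of 32.5 bp. The outermost of them lay near A630055G03Rik (187 bp), 2410131K14Rik (158 and 113 bp), Gm12319 (136 bp), Btbd16 (134 bp), Litaf (122 bp), Per2 (116 bp), Ppp2r2a (92 bp), Hif1a (91 bp) and 2410080I02Rik (82 bp), each named by the gene of its nearest BMAL1 peak. The nearest region without BMAL1 followed at 865 bp and the next at 1885 bp, so no CLOCK peak lay between 187 and 865 bp. Most of the 931 were far from any BMAL1 peak. Their median distance was 0.847 Mb and the upper quartile 2.04 Mb. Only 1 lay between 500 and 1000 bp, 13 between 1 and 10 kb, 82 (8.81%) between 10 and 100 kb, 414 (44.5%) between 100 kb and 1 Mb, and 421 (45.2%) farther than 1 Mb. The 5 farthest lay 9.14, 9.42, 9.86, 10.5 and 14.7 Mb away, on chromosomes 4, 1, X, 4 and X in that order. These distances describe the choice of regions and were not tested.

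**Figure D1:**
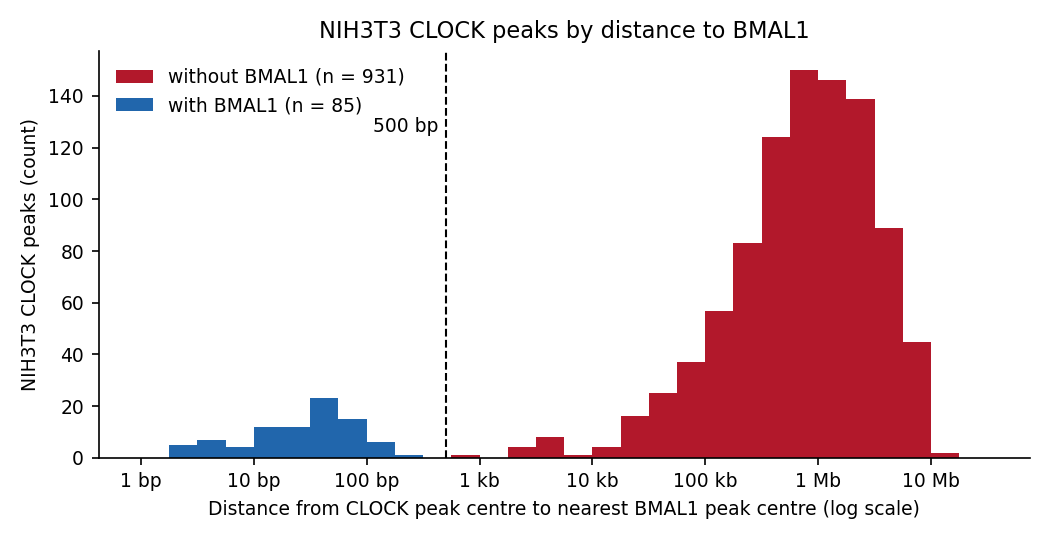
Number of NIH3T3 CLOCK peaks (vertical axis) by the distance from the peak centre to the nearest BMAL1 peak centre in either list (horizontal axis, log scale), with the 931 peaks without BMAL1 in red, the 85 with BMAL1 in blue and the 500 bp limit dashed. The blue peaks end at 187 bp, the red ones begin at 865 bp, and most red peaks lie beyond 100 kb.

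Within 10 kb of a BMAL1 peak lay 14 of the 931 regions (1.50%, 95% Clopper-Pearson interval 0.824 to 2.51). Of these, 7 were at Nr1d1 and 2 at Per2. The other 5 were single regions. One lay 1885 bp from a BMAL1 peak annotated to Pnpla3, a lipase-family protein of lipid droplets, and one 9883 bp from a BMAL1 peak of Cnn3, an actin-binding calponin. The remaining 3 were 3402, 4035.5 and 4258.5 bp from BMAL1 peaks of the predicted genes Gm11719, Gm14236 and Gm17597. At each of these 5 the near BMAL1 peak was in the liver list alone. The nearest NIH3T3 BMAL1 peak was 765 kb away for the Pnpla3 region, 169 kb for Cnn3, 4.86 Mb for Gm11719, 3.62 Mb for Gm14236 and 12.6 kb for Gm17597.

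Nr1d1 held the one dense cluster. Nr1d1 encodes REV-ERBα, a nuclear receptor that represses Bmal1 and so closes a second loop of the clock. The 7 regions without BMAL1 lay in a row upstream of the gene, which is transcribed from the minus strand of chromosome 11. Ordered from the gene outwards, they were chr11:98640152-98640201, chr11:98640664-98640713, chr11:98641171-98641220, chr11:98641896-98641945, chr11:98642108-98642157, chr11:98642537-98642586 and chr11:98643864-98643913. Their centres stood 3507, 4019, 4526, 5251, 5463, 5892 and 7219 bp upstream of the start site derived from the BMAL1 lists. Neighbours in this row were 212 to 1327 bp apart. The 5 CLOCK peaks with BMAL1 at the same gene lay on both sides of the row: 1 at 8078 bp upstream, and 4 around the start, at 332 bp upstream and 62, 1192 and 1503 bp downstream. The row therefore lay in the stretch between 1 distal peak and a proximal group of peaks, at which both proteins were listed.

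The liver lists also had CLOCK peaks without BMAL1 in this stretch of Nr1d1. Within 15 kb of the start, the liver CLOCK list had 15 peaks and the liver BMAL1 list 4. Of the 15, 9 had no liver BMAL1 peak within 500 bp, 8 of those 9 were upstream, and 7 of the 9 had one of the NIH3T3 regions within 500 bp. Liver CLOCK peaks without liver BMAL1 were common throughout that list, 392 of 439, so the 9 of 15 at Nr1d1 are not particular to the gene. Taken from the NIH3T3 side, each of the 7 regions had a liver CLOCK centre 82 to 341 bp away. The NIH3T3 BMAL1 list had 7 peaks in this window, 6 of them between 275 bp upstream and 2369 bp downstream of the start and 1 at 8084 bp upstream. None of the 7 fell in the row between 3507 and 7219 bp upstream.

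The promoter window of Nr1d1 is printed because it marks the near end of that stretch, where CLOCK and BMAL1 peaks coincided. It is the RefSeq window of assembly GRCm38.p6, chr11:98775328-98775627, minus strand, from 250 bases before to 50 bases after the annotated start, written 5′ to 3′. These coordinates belong to another build than the peaks and were not converted. The capitals mark AACGTG, a variant of the E-box, which begins 28 bases before the start.
Nr1d1: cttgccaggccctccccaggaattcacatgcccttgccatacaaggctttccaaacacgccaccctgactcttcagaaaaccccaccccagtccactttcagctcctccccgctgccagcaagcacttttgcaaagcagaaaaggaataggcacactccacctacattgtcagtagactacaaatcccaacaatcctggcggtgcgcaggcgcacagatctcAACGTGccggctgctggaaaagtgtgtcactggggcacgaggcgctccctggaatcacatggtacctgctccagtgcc
Searched on both strands, the window held no CACGTG, the canonical E-box, and 1 AACGTG. Over all 32851 RefSeq promoter windows of that length, 7.15% held CACGTG and 4.68% held AACGTG on either strand. No region without BMAL1 overlapped such a window as far as start sites could be derived, so the letters describe the neighbouring promoter and not the regions. The sequences of the 931 regions themselves were not analysed here.

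Per2, a repressor of CLOCK and BMAL1, had a smaller version of this. Its 2 regions without BMAL1, chr1:93350751-93350800 and chr1:93350494-93350543, lay 5130 and 5387 bp downstream of the derived start and 257 bp apart. They were 5119 and 5376 bp from the nearest BMAL1 peak. The single CLOCK peak with BMAL1 at Per2 was 105 bp upstream of the start, beside 3 BMAL1 peaks that both BMAL1 lists held. Unlike at Nr1d1, the liver CLOCK list held no peak beside the 2 regions: its 1 peak at Per2 was 45 bp upstream of the start, 5175 and 5432 bp from them.

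**Figure D2:**
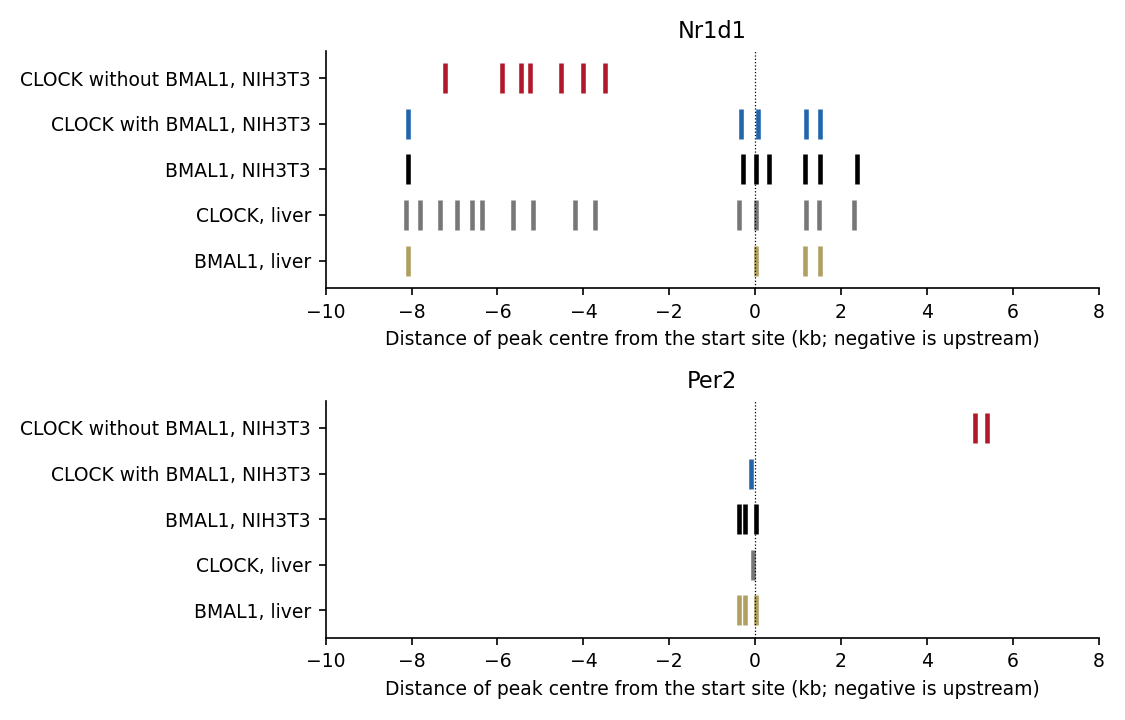
Peak centres at Nr1d1 (upper panel) and Per2 (lower panel), plotted by distance in kb from the start site derived from the BMAL1 lists, negative being upstream, with 1 row for each kind of peak. At Nr1d1 the 7 NIH3T3 CLOCK peaks without BMAL1 lie 3507 to 7219 bp upstream, in a stretch where the liver CLOCK list has peaks and neither BMAL1 list does, and at Per2 the 2 such peaks lie over 5 kb downstream, where no other list has a peak.

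At the other core clock and clock output genes that had a BMAL1 peak, CLOCK peaks within 10 kb were found with BMAL1 or not at all. Genes without a BMAL1 peak could not be examined. A gene was linked to a region where its BMAL1 peak or derived start lay within 10 kb. By the choice of regions, a CLOCK peak with BMAL1 has a BMAL1 peak within 500 bp. It is thus linked to any gene annotated to that peak. The counts with and without BMAL1 therefore describe the choice and are not a test. Of 24 core clock genes 12 had at least 1 BMAL1 peak, and 2 (Nr1d1 and Per2) of those 12 were linked to a region without BMAL1, against 8 of the 12 linked to a CLOCK peak with BMAL1. Per1 (3 CLOCK peaks), Cry1 (2), Cry2 (1), Nr1d2 (1) and Bhlhe41 (1), all repressors within the clock, had CLOCK peaks with BMAL1 and none without. Gm129 (1) likewise had its CLOCK peak with BMAL1. The same held for Dbp (3), Tef (2) and Hlf (1), the PAR-domain transcription factors that carry clock output. One region, the Gm17597 one at chr15:81628742-81628791, lay 12710 bp upstream of the derived start of Tef, outside the 10 kb limit. Over all 1137 genes of the BMAL1 lists, 9 (0.792%) were linked to a region without BMAL1 and 72 (6.33%) to a CLOCK peak with BMAL1.

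None of the other gene lists had a gene linked to the regions without BMAL1. With 9 of all 1137 genes linked (0.792%), lists this short say little by having none, and the zeros are not a result about these groups. Pnpla3 and Arg1, which act in lipid and urea metabolism, were linked but are on none of the lists. No gene was linked among the 8 genes with a BMAL1 peak of the glucocorticoid response list, the 4 of the immediate early list, the 4 of the fibroblast and extracellular matrix list, the 9 of the cell cycle list, the 7 of the ribosome list, the 10 of the lipid list and the 10 of the glucose and insulin list. None of the 6 clock output genes was linked either. CLOCK peaks with BMAL1 were linked to 4 of the 6 clock output genes, 3 of the 8 glucocorticoid response genes, 2 of the 10 glucose and insulin genes and 1 of the 9 cell cycle genes. Their links follow from the choice of regions, so they are no contrast to the zeros. These counts cover only genes that had a BMAL1 peak, since the gene column of the CLOCK list was not usable and a genome annotation of the files' build was not used here. A region close to a gene without any BMAL1 peak is therefore not seen as such.

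Distances to start sites could be taken only for genes with a BMAL1 peak. A start could be derived for 890 of the 1137 genes from the position of the BMAL1 peak and the authors' signed distance. Where a gene had several peaks, the closest derived starts agreed to within 3 bp for 160 of 195 genes. For 49 genes the strand itself was taken from the agreement of several peaks, so their starts agree by construction. None of the 931 regions lay within 300 bp or within 1 kb of a derived start, 13 (1.40%) lay within 10 kb and 78 (8.38%) within 100 kb. Of these 78, 48 were upstream and 30 downstream of the start. The choice of regions left out CLOCK peaks within 500 bp of a BMAL1 peak. Where a BMAL1 peak sits at a start, a region close to that start was thus excluded beforehand. The zeros near starts are therefore not a result about the regions. After Nr1d1, the gene with a start nearest to a region was Gm17597 (4278 bp downstream of its start), then Per2 (5130 bp downstream), Arg1, the arginase of the urea cycle (5700 bp downstream), Cryba1, a lens crystallin (7763 bp upstream), Pnpla3 (9627 bp upstream) and Cnn3 (10317 bp upstream). Farther out were Ttc9 (11290 bp), Tenc1, a tensin of focal adhesions (13562 bp), Upp2, a uridine phosphorylase (18648 bp), Angptl2, a secreted angiopoietin-like protein (20169 bp), 2900026A02Rik (20792 bp), Rnase10 (21280 bp), Tlcd1 (22969 bp), Usp2, a deubiquitinase (25144 bp), Mthfd1l, a mitochondrial enzyme of folate metabolism (25849 bp), A430005L14Rik (28225 bp), Slc1a2, a glutamate transporter (30024 bp), Trim37, a ubiquitin ligase (32304 bp), and Urgcp (33486 bp). Each of these 20 genes has a BMAL1 peak of its own by construction, and another gene may lie closer to the region.

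Few of the regions without BMAL1 were found again in liver CLOCK ChIP-seq. A liver CLOCK peak centre lay within 500 bp of 27 NIH3T3 CLOCK peaks (2.66%). These were 7 of the 931 without BMAL1 (0.752%, interval 0.303 to 1.54) and 20 of the 85 with BMAL1 (23.5%, interval 15.0 to 34.0). This gave an odds ratio of 0.0249 (two-sided Fisher exact p = 1.70e-17, 95% interval 0.00856 to 0.0640). All 7 were the Nr1d1 regions. All 27 peaks stood among the first 50 entries of the deposited list, which held only 12 regions without BMAL1. Of those 12, 7 had a liver CLOCK peak, and no later entry of either kind had one. The test therefore does not separate BMAL1 from place in the list. Outside Nr1d1, 0 of 924 regions had a liver CLOCK peak (95% Clopper-Pearson interval 0 to 0.398%), against 15 of 80 CLOCK peaks with BMAL1. Wider windows added few regions up to 100 kb: 9 of 931 (0.967%) had a liver CLOCK centre within 10 kb and 35 (3.76%) within 100 kb, against 21 (24.7%) and 23 (27.1%) of the 85. At 1 Mb the shares were 28.0% and 45.9%. The liver BMAL1 list took part in the choice of regions, while the liver CLOCK list did not. Peaks of a list are not replicates, and neither this test nor those below covers the variation between cultures or animals.

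**Figure D3:**
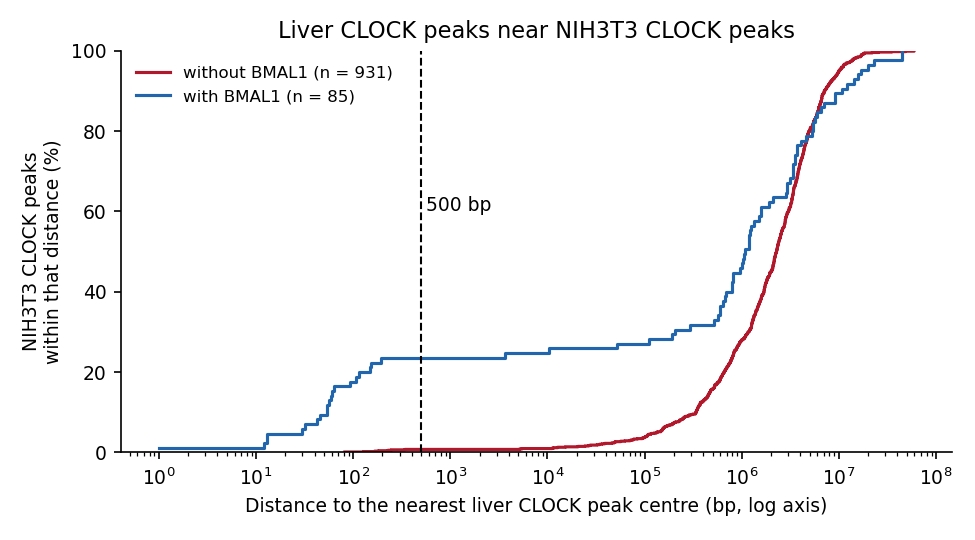
Cumulative share of NIH3T3 CLOCK peaks (percent, vertical axis) with a liver CLOCK peak centre within the distance on the horizontal axis (bp, log axis), for the 931 peaks without BMAL1 (red) and the 85 with BMAL1 (blue), with 500 bp dashed. At 500 bp the blue line has reached 23.5% and the red line 0.752%.

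The regions without BMAL1 mostly stood alone. Another NIH3T3 CLOCK peak lay within 1 kb of 78 of all 1016 CLOCK peaks (7.68%), namely 59 of the 931 without BMAL1 (6.34%, interval 4.86 to 8.10) and 19 of the 85 with BMAL1 (22.4%, interval 14.0 to 32.7). This gave an odds ratio of 0.236 (two-sided Fisher exact p = 6.03e-06, 95% interval 0.129 to 0.444). Each peak of a close pair or row is counted here, so the counts are not independent. Neither the p-values nor the intervals of this comparison allow for that. Outside Nr1d1 the counts were 52 of 924 and 14 of 80, with an odds ratio of 0.282 (two-sided Fisher exact p = 3.54e-04). Among the first 508 entries of the deposited list they were 39 of 431 and 19 of 77. The odds ratio there was 0.305 (two-sided Fisher exact p = 2.97e-04), for a cut chosen after the data had been seen. All 19 thus stood among the first 508 entries, and the test does not fully separate BMAL1 from place in the list. Of the 931, 858 had no other such region within 10 kb. The rest formed 33 pairs and the Nr1d1 row, which was the only group of 3 or more. In 26 of the 33 pairs the centres were under 500 bp apart, with a median spacing of 256.5 bp and a largest of 407 bp, and in 7 pairs they were 500 bp to 10 kb apart. No pair of NIH3T3 CLOCK peaks was closer than 201 bp.

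Most CLOCK peaks with BMAL1 stood early in the deposited list, while the regions without BMAL1 ran through all of it. Its entries were not in genomic order, and the sort key was not given in the sources used here. Counted from the top, the median place was 543 for the regions without BMAL1 and 57 for the CLOCK peaks with BMAL1. Among the first 100 entries 46 were without BMAL1, among the next 100 there were 85, and in each later stretch of 100 there were 95 to 100. Of the 12 among the first 50 entries, 7 were the Nr1d1 regions, at places 15 to 32. The other 5 were on chromosomes X (place 12), 5 (places 28, 30 and 38) and 1 (place 49), at 2.64, 3.53, 1.52, 2.33 and 0.693 Mb from any BMAL1 peak. With the list cut in the middle, 431 of the earlier 508 entries (84.8%) and 500 of the later 508 (98.4%) were without BMAL1, an odds ratio of 0.0897 (95% interval 0.0370 to 0.189, two-sided Fisher exact p = 2.21e-16). This comparison was chosen after the data had been seen.

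**Figure D4:**
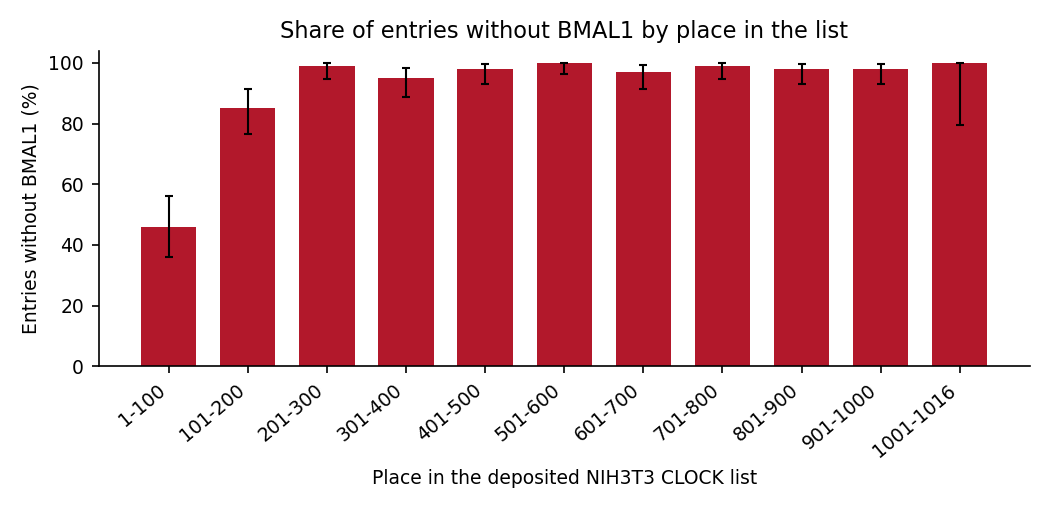
Share of entries without BMAL1 (percent, vertical axis) in successive stretches of 100 entries of the deposited NIH3T3 CLOCK list (horizontal axis, the last bar holding 16 entries), with 95% Clopper-Pearson intervals. The share is 46% in the first bar, 85% in the second and 95% or more in every later bar.

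The chromosomes of the regions without BMAL1 differed between the earlier and the later 508 entries. Each of 20 chromosomes was tested with a two-sided Fisher exact test and Benjamini-Hochberg adjustment over the 20, and 7 passed an adjusted p of 0.05 (35%). Chromosomes 1, 10 and 15 held more of the 431 regions among the earlier entries than of the 500 among the later ones. Chromosome 15 had 46 regions (10.7%) early in the list and 22 (4.40%) late (odds ratio 2.59, adjusted p = 0.00176, Fisher exact). By the same exact test, chromosome 10 had 43 and 20 (odds ratio 2.66, adjusted p = 0.00176) and chromosome 1 had 59 and 34 (odds ratio 2.17, adjusted p = 0.00248). Chromosomes 7, 9, 13 and 18 held fewer of the early regions. Chromosome 7 had 3 early regions (0.696%) and 29 late ones (5.80%), an odds ratio of 0.114 (adjusted p = 1.41e-04, Fisher exact). Also by the exact test, chromosome 9 had 5 and 32 (odds ratio 0.172, adjusted p = 2.90e-04), chromosome 18 had 3 and 20 (odds ratio 0.168, adjusted p = 0.00356) and chromosome 13 had 8 and 25 (odds ratio 0.360, adjusted p = 0.0340). Without the first 100 entries 6 chromosomes passed, and chromosome 13 did not (adjusted p = 0.0760, Fisher exact). The list was made up of 106 runs in which chromosome names, read as text, did not increase, the longest of 39 entries. Within a run, place in the list was thus tied to chromosome name, which the exact tests do not allow for. The regions are 91.6% of the list, and the split was not made for the whole list. It is therefore not shown to be particular to regions without BMAL1. What set the difference between early and late entries was not tested, and this comparison too was chosen after the data had been seen.

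The regions were also compared with the liver CLOCK list by chromosome, a comparison added after the data had been seen. Over all 931 regions, 1 of 20 chromosomes (5%) differed from the 439 liver CLOCK peaks: chromosome 7, with 32 regions (3.44%) against 37 liver peaks (8.43%), an odds ratio of 0.387 (adjusted p = 0.00333, Fisher exact). For the 431 early regions 8 of 20 chromosomes differed from the liver list, and for the 500 late ones 0 of 20 did. The limit set by the order of the list holds for this split too. On chromosome 7 the odds ratio was 0.0763 (adjusted p = 2.08e-07, Fisher exact) for the early regions and 0.669 (adjusted p = 0.611) for the late ones. Against the 85 CLOCK peaks with BMAL1, 1 of 20 chromosomes (5%) differed, chromosome 11, with 70 of 931 (7.52%) against 16 of 85 (18.8%), an odds ratio of 0.351 (adjusted p = 0.0303, Fisher exact). With CLOCK peaks under 1 kb apart merged into loci, that call was lost (0 of 20).

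**Figure D5:**
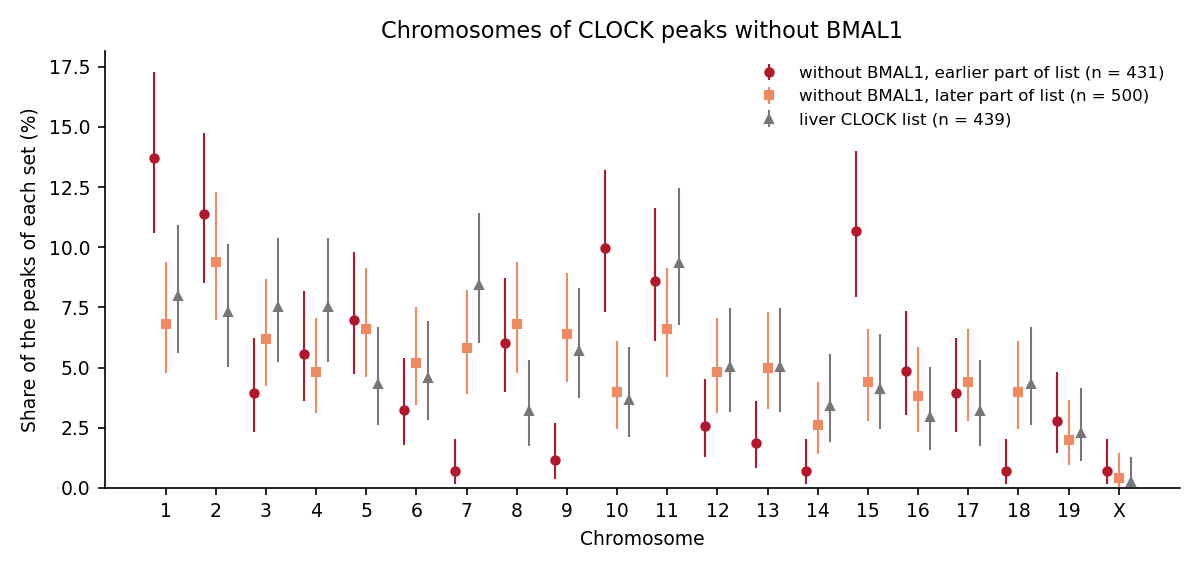
Share of the peaks of each set on each chromosome (percent, vertical axis; chromosomes on the horizontal axis) with 95% Clopper-Pearson intervals, for regions without BMAL1 among the earlier (circles, n = 431) and later (squares, n = 500) entries of the list and for the liver CLOCK list (triangles, n = 439). The circles stand above the squares on chromosomes 1, 10 and 15 and below them on 7, 9, 13 and 18, while the squares lie near the triangles on most chromosomes.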

How the data were processed

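Only peak lists were used, of CLOCK and BMAL1 in NIH3T3 cells and liver. The deposited lists gave positions (chromosome, start, end) and, for BMAL1, a gene and the authors' signed distance to its start. Bowtie, SAMtools, bedtools and the build mm9 appear without roles or versions, per the submitters' processing notes. How peaks were called and how the CLOCK list was filtered was not given in the sources used here. In the NIH3T3 CLOCK list, the gene column did not match the positions and was not used. Centres were compared by distance with Python 3.11.15, pandas 2.3.3 and SciPy 1.17.1. Shares carry 95% Clopper-Pearson intervals, which cover counting error only. Splits were compared by two-sided Fisher exact tests, with conditional odds ratios, and checked on simulated data.

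The regions, gene lists and tests were chosen with earlier results of these data known. Named were the listed genes linked to a region, the 20 genes with starts nearest a region, the regions near liver CLOCK peaks, the 10 on either side of the 500 bp limit, groups of 3 or more and the 5 farthest. The alternatives are given in the closing section.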

Additional observations from a re-analysis of the deposited data

How the results depend on the processing

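Over 72 recomputed values, 62 kept their direction, their side of the threshold and, for counts, their size within 1.5 times. The share of regions with a BMAL1 peak within 10 kb was 4.18% when BMAL1 presence needed an overlap of at least 1 bp, 0.758% without the Nr1d1 region, 2.55% among the earlier 508 entries and 0.779% for loci joined within 1 kb. Those 508 entries held 431 regions. For them 8 chromosomes differed from the liver CLOCK list, and for the later entries 0. Joining loci left 0 chromosomes that differed from CLOCK peaks with BMAL1. The number of regions was 930 to 957 under the other distances and BMAL1 lists and 899 as joined loci. The odds ratio for a liver CLOCK peak stayed between 0 and 0.0629 and that for another CLOCK peak between 0.208 and 0.375, all past the threshold. For another CLOCK peak, the tests count each peak of a close pair, as said above. Chromosome 7 against the liver list among the later entries, and chromosome 13 without the first 100 entries, no longer passed. The settings that leave out Nr1d1 or the first 100 entries or split the list were chosen after seeing the data. The planned motif test was not run, since no genome of the files' build was used here. No paired analysis was possible because the peak lists carry no replicate columns.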

Other observations

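The regions without BMAL1 were found on each of the 20 chromosomes tested. Windows of 10 Mb were counted only where a region, a liver CLOCK peak or a NIH3T3 BMAL1 peak lay. Of these 255 windows, 15 held no region, the median window held 3, and the fullest held 14. Windows empty of all of these were left out, so the share of the genome without a region is not given. On chromosome X, for example, the first counted window began at 90 Mb. That fullest window was on chromosome 8 between 110 and 120 Mb, where neither the liver CLOCK list nor the NIH3T3 BMAL1 list had a peak (0 each). The liver BMAL1 list was not counted by window. It did have a peak in this window, 158706 bp from the region at chr8:116455999-116456048. The window was picked for its count and was not tested.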
